A study of Mus musculus with 6 samples.

Results

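Major urinary proteins are small lipocalins that the mouse liver makes in large amounts and secretes into the blood, from which they pass into the urine. The 9 genes described here are Mup1, Mup2, Mup3, Mup7, Mup10, Mup11, Mup17, Mup20 and Mup21. They were taken by their symbols and are 9 of the 48 rows with a Mup symbol among the 34866 genes of the count table, which held 22 protein-coding genes and 26 pseudogenes of the family. Polyadenylated RNA of livers from male C57BL/6 mice aged 8 weeks was sequenced in 3 libraries of animals given vehicle and 3 of animals given iD1, a compound known here by its code name only. The drug was injected into the abdominal cavity, and the animals of both groups had free access to food and a 12-hour light-dark cycle. No dose, exposure time or target is stated, and the treatment field of the vehicle samples reads untreated. The vehicle libraries are called 1, 2 and unnumbered, since the number of the last one in the count table matches no sample title. It is not stated that each library came from an animal of its own, so the spread that the p-values rest on may be technical.

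As background, major urinary proteins carry volatile pheromones in a closed barrel and release them slowly from urine marks. In the male mouse liver their genes are driven by pulses of growth hormone, which act through the JAK2 kinase and the transcription factor STAT5b, and by androgen, thyroid hormone and glucocorticoid. The genes lie in a cluster of recent duplications, in which central copies are nearly identical and a few peripheral copies, such as Mup3, Mup20 and Mup21, have diverged. Mup20 encodes darcin, the protein that makes male scent attractive to females.

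On GRCm38 (GENCODE M21), 47 of the 48 Mup rows lay on chromosome 4 in a stretch of 2194060 bases, and the members were all on its minus strand. From left to right the first of them are Mup7 (ENSMUSG00000073842, chr4:60066469-60070475), Mup2 (ENSMUSG00000078688, chr4:60135932-60154289), Mup1 (ENSMUSG00000078683, chr4:60498012-60501960), Mup10 (ENSMUSG00000078680, chr4:60578260-60582199), Mup11 (ENSMUSG00000073834, chr4:60658466-60662411) and Mup17 (ENSMUSG00000096688, chr4:61591929-61595871). Mup20 (ENSMUSG00000078672, chr4:62050234-62054158), Mup3 (ENSMUSG00000066154, chr4:62083476-62087342) and Mup21 (ENSMUSG00000066153, chr4:62147932-62150863) lie at the right end.

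How far a single member can be measured depends on its sequence, so a 90-base stretch of each coding sequence is shown, 5′ to 3′. It covers coding bases 91 to 180 of Mup1, Mup2, Mup7, Mup10 and Mup17, 94 to 183 of Mup11, Mup20 and Mup21, and 103 to 192 of Mup3. Capitals mark bases that differ from the commonest base among the 9 members.
Mup1, Mup10 and Mup11: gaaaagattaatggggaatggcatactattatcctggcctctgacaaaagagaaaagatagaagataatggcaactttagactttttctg
Mup2: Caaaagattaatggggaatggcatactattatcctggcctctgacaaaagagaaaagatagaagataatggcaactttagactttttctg
Mup7: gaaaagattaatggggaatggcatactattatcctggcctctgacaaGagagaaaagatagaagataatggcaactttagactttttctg
Mup17: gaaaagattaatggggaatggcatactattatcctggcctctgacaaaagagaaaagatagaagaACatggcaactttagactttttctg
Mup20: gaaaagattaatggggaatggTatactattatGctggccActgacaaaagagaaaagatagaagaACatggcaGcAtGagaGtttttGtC
Mup3: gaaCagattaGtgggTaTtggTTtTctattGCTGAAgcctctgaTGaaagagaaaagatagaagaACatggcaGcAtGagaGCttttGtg
Mup21: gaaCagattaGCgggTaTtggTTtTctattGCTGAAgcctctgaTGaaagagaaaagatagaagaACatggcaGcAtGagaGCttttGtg
In this stretch Mup1, Mup10 and Mup11 have the same letters, Mup2 and Mup7 differ from them at 1 base each and Mup17 at 2 bases. Mup20 differs from the commonest bases at 11 positions, Mup3 at 23 and Mup21 at 24.

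Over the whole coding sequence the same grouping held. The 15 pairs among Mup1, Mup2, Mup7, Mup10, Mup11 and Mup17 were 98.3% to 99.4% identical and differed at 3 to 9 bases. These 6 genes are called the near-identical members below. Mup20 was 90.1% to 91.3% identical to them, Mup21 83.6% to 84.7% and Mup3 82.3% to 83.6%. Mup3 and Mup21 were closer to each other, with 94.7% identity and 29 differing positions. Relatives outside the 9 genes were closer still, since the coding sequence of Mup11 differed from that of Mup18 at 1 base, and Mup1 from Mup12, Mup2 from Mup15 and Mup10 from Mup9 at 2 bases each.

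**Figure D1:**
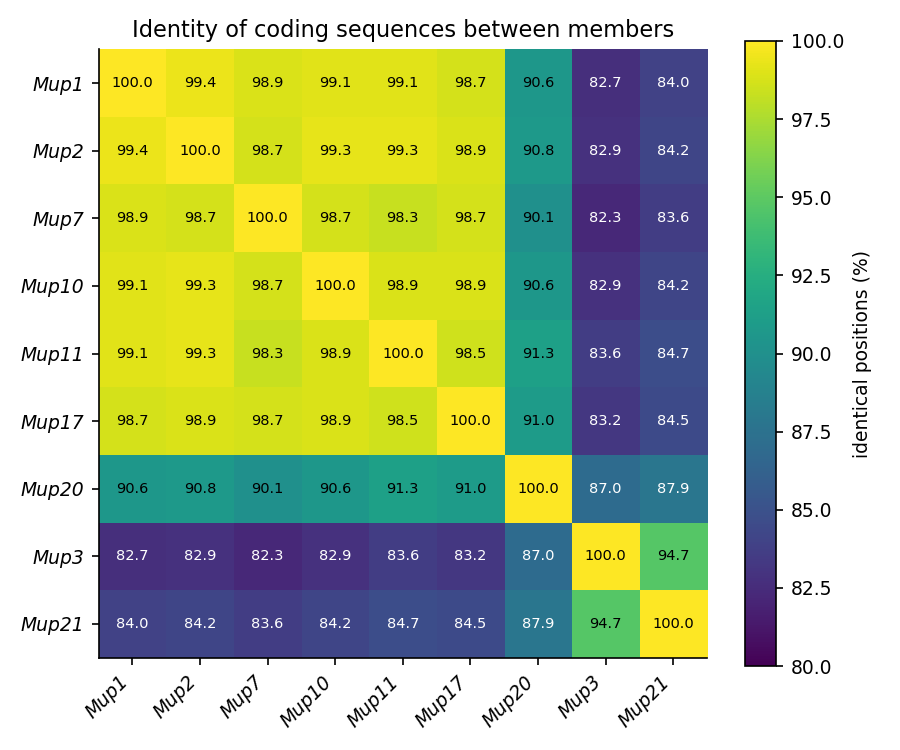
Percent identical positions between the coding sequences of each pair of the 9 Mup genes, from pairwise alignments of GENCODE M21 transcripts. The near-identical members form a block of at least 98.3%, Mup20 stands at 90.1% to 91.3% from them, and Mup3 and Mup21 pair with each other at 94.7%.

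Reads from such copies are hard to assign, and the deposited values are estimates that need not be whole. Of the stretches of 100 bases in its transcript, Mup2 shared 97.3% letter for letter with another Mup gene, Mup1 87.2%, Mup7 87.1%, Mup10 85.4%, Mup11 83.5% and Mup17 59.4%. For Mup20 the share was 38.8%, while Mup21 shared 4.50% and Mup3 2.94%. The level of a single near-identical member is therefore uncertain, and the sum over all Mup rows and the values of Mup3 and Mup21 depend less on how reads were shared out between copies.

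With iD1, none of the 9 genes changed by the test. EdgeR's quasi-likelihood test called 0 of 9 at an adjusted p under 0.05, beside 16.7% of the 13718 genes tested in this comparison. At an unadjusted p under 0.05 the count was also 0 of 9, beside 31.3% of all genes tested, and DESeq2 and limma-voom called 0 of 9 as well. In none of the 9 did the iD1 libraries lie wholly above or below the vehicle libraries, which they did for 37.2% of all genes tested. The log2 fold changes, iD1 minus vehicle, ranged from -0.51 for Mup21 to 0.58 for Mup17, with 7 above 0 and 2 below. Their median was 0.13, and that of all genes tested was 0.00064. Scaling by library size alone moved the median of all genes to -0.20, and Mup2, Mup3 and Mup20 then also lay below 0, at -0.09, -0.20 and -0.20. Upper-quartile scaling put Mup3 and Mup20 at -0.07 each.

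The 95% intervals of these fold changes show what the libraries could resolve. In 6 of the 9 genes the interval lay within a 2-fold change in either direction. The exceptions were Mup11, Mup17 and Mup21. Mup1 and Mup10 came near the bound, with an upper end of 0.97 and a lower end of -0.93 on the log2 scale. The intervals take the estimated counts as given, without the uncertainty of sharing reads between near-identical copies. In simulated counts for genes drawn from all those tested, 12% of genes changed 1.5-fold and 64% of genes changed 2-fold were called. Only 50 genes were changed at each fold and 13518 were left unchanged, whereas 16.7% of genes were called in the data. With fewer changed genes the adjusted p is harder to pass, so these rates may be lower than those of the real comparison. A change of about 1.5-fold in a single gene of that kind could have been missed. The rates do not describe the Mup genes, whose median coefficient of variation in vehicle was 39.8%. For genes with at least 10 CPM in both groups it was 9.63%.

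**Figure D2:**
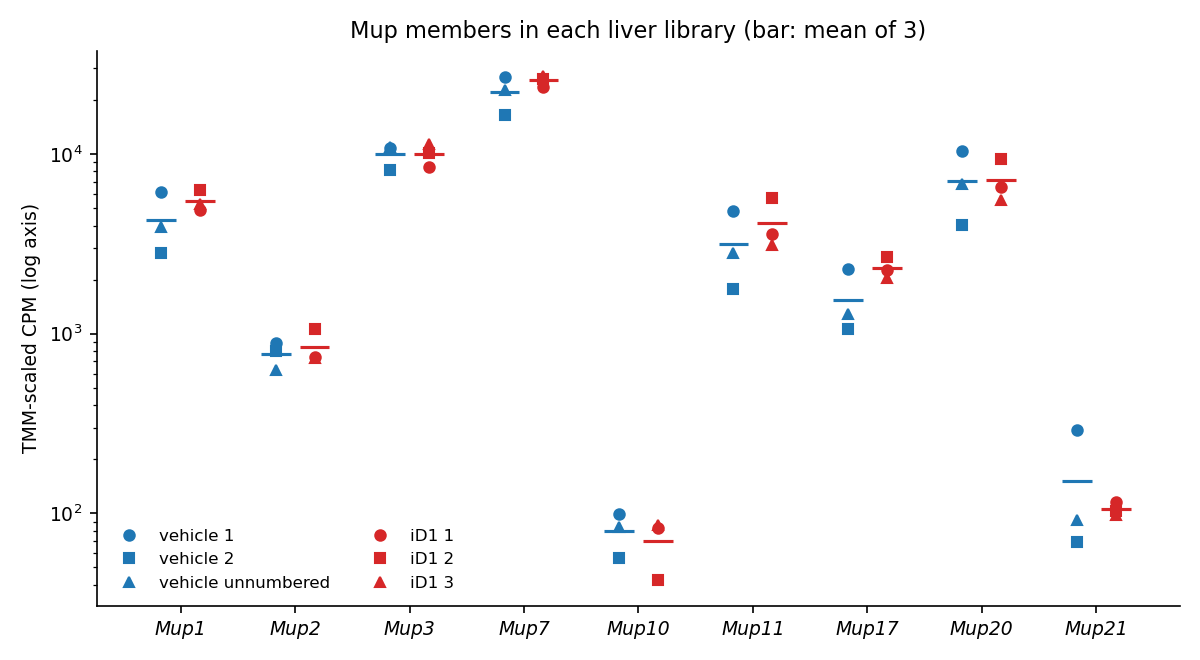
Counts per 1000000 (CPM) on TMM-scaled library sizes (log axis) of the 9 Mup genes in each of the 6 liver libraries, vehicle in blue and iD1 in red, with bars at the mean of 3. The groups overlap in each gene, from means of 22036 and 25667 CPM for Mup7 down to 42.3 to 99.1 CPM for Mup10, and vehicle replicate 1 is the highest vehicle library in 8 of the 9 genes.

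Mup7 was the most abundant of the 9 transcripts. It stood at 26770 CPM (counts per 1000000 counts of the TMM-scaled library) in vehicle 1, 16483 in vehicle 2 and 22854 in the unnumbered vehicle library, and at 23650, 26160 and 27192 CPM in iD1 1, 2 and 3. Vehicle 2 was the low library and the other 5 lay close together. The mean was 22036 ± 5192 CPM in vehicle and 25667 ± 1822 in iD1 (SD, n = 3 each), a log2 fold change of 0.22 (SE 0.22, adjusted p = 0.530, 95% interval -0.26 to 0.70).

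Mup1, one of the central copies, had 6168, 2808 and 3922 CPM in vehicle 1, 2 and unnumbered, and 4892, 6322 and 5249 CPM in iD1 1, 2 and 3. One vehicle library lay near the top of the iD1 range and the others below it. The log2 fold change was 0.35 (SE 0.27, adjusted p = 0.418, interval -0.26 to 0.97).

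Mup11 spread more widely in both groups, with 4828, 1778 and 2819 CPM in vehicle 1, 2 and unnumbered and 3575, 5721 and 3111 CPM in iD1 1, 2 and 3. Its highest and lowest libraries differed 2.71-fold within vehicle and 1.84-fold within iD1. The log2 fold change was 0.40 (SE 0.38, adjusted p = 0.525), and its interval of -0.48 to 1.28 includes a rise of more than 2-fold.

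Mup17 had the largest fold change of the 9 and the lowest adjusted p. It measured 2281, 1067 and 1293 CPM in vehicle 1, 2 and unnumbered, and 2254, 2664 and 2040 CPM in iD1 1, 2 and 3. The iD1 libraries were all above the lower pair of vehicle libraries, and vehicle 1 lay among them. The log2 fold change was 0.58 (SE 0.28, adjusted p = 0.183, interval -0.04 to 1.21). Without vehicle 1 it was 0.98 with an adjusted p of 0.0189, the one case in which leaving out a library gave a called member.

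Mup2 and Mup10 were the least abundant of the near-identical members. Mup2 had 892, 796 and 626 CPM in vehicle 1, 2 and unnumbered and 746, 1055 and 730 CPM in iD1 1, 2 and 3, a log2 fold change of 0.13 (SE 0.20, adjusted p = 0.703, interval -0.32 to 0.58). Mup10 had 99.1, 56.7 and 84.1 CPM in vehicle and 82.8, 42.3 and 86.5 CPM in iD1, in the same library order. Library 2 was the lowest of its group in both conditions for Mup10, and the log2 fold change was -0.18 (SE 0.32, adjusted p = 0.743, interval -0.93 to 0.57). Without iD1 2 the log2 fold change of Mup10 was 0.08.

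Summed, the near-identical members had 41037, 22989 and 31597 CPM in vehicle 1, 2 and unnumbered and 35200, 41963 and 38408 CPM in iD1 1, 2 and 3. Vehicle 1 lay inside the iD1 range and the other vehicle libraries below it. The means were 31874 ± 9027 and 38524 ± 3383 CPM (SD, n = 3 each), a ratio of 1.21. Within vehicle the highest library exceeded the lowest 1.79-fold. The difference in this sum between the groups was not tested.

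Of the diverged members, Mup3 was the most abundant and the one whose reads were least shared. It had 10763, 8194 and 10883 CPM in vehicle 1, 2 and unnumbered and 8486, 10145 and 11361 CPM in iD1 1, 2 and 3. Both groups covered nearly the same range. The log2 fold change was 0.01 (SE 0.20, adjusted p = 0.986), and the interval of -0.44 to 0.45 runs from 0.740-fold to 1.37-fold.

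Mup20, the gene of darcin, had 10356, 4049 and 6837 CPM in vehicle 1, 2 and unnumbered and 6540, 9354 and 5511 CPM in iD1 1, 2 and 3. The vehicle libraries differed 2.56-fold and enclosed the whole iD1 range. The log2 fold change was 0.01 (SE 0.34, adjusted p = 0.988, interval -0.76 to 0.79).

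Mup21 had 291, 69.3 and 92.3 CPM in vehicle 1, 2 and unnumbered and 115, 103 and 98.5 CPM in iD1 1, 2 and 3. Vehicle 1 stood apart from the other 5 libraries, which lay between 69.3 and 115 CPM. The log2 fold change was -0.51 (SE 0.58, adjusted p = 0.603, interval -1.98 to 0.95), and without vehicle 1 its sign turned, to 0.39 with an adjusted p of 0.159.

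**Figure D3:**
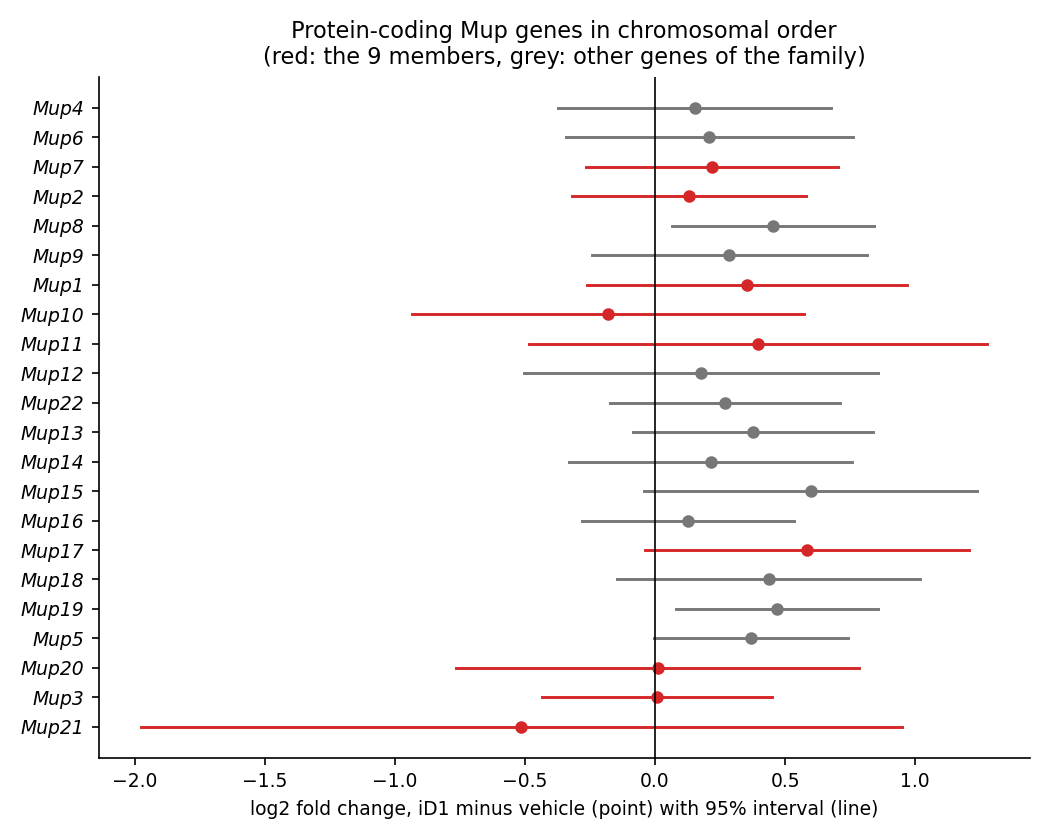
Log2 fold change, iD1 minus vehicle, of the 22 protein-coding Mup genes in chromosomal order, with 95% intervals from edgeR's quasi-likelihood fit (members in red, other genes of the family in grey). The intervals of all 9 members include 0, and that of Mup21 is the widest, from -1.98 to 0.95.

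Per length of annotated exons the order of the 9 genes was the same in both groups. These lengths join all annotated exons of a gene. For Mup1 and Mup11 they were 1584 and 1576 bases, against transcripts of 927 and 930 bases, while Mup17 had 927 in both. Distances and overlaps between genes on this scale therefore depend on the lengths used. On the TPM scale (transcripts per 1000000), computed from the estimated counts and exon lengths, Mup7 led with 38439 ± 8393 in vehicle and 40086 ± 2087 in iD1 (SD, n = 3 each), and ranked 5 among all genes in vehicle. Mup3 followed with 16777 ± 1786 and 15056 ± 1532, then Mup20 with 13732 ± 6137 and 12333 ± 2818. Mup3 and Mup20 overlapped in both groups, while Mup7 lay above both in every library.

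Next in this order, Mup1 overlapped with Mup11, and Mup11 with Mup17, in both groups on this scale. All 3 lay below Mup20 in every library. In CPM, which is not divided by length, Mup11 lay above Mup17 in iD1, at 3111 to 5721 against 2040 to 2664. Mup1 stood at 4901 ± 1972 TPM in vehicle and 5568 ± 354 in iD1, Mup11 at 3595 ± 1798 and 4194 ± 1148, and Mup17 at 3023 ± 1294 and 4035 ± 481. Mup2, at 1054 ± 242 and 1013 ± 157, lay below them in every library. Mup21, at 405 ± 333 TPM in vehicle, overlapped with Mup2 there and lay below it in iD1, at 254 ± 43.1. In CPM, Mup21 lay below Mup2 in vehicle too, at 69.3 to 291 against 626 to 892. Mup10 was the lowest in every library, at 103 ± 25.8 and 83.3 ± 33.2 TPM.

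The 48 Mup rows together took 14.2%, 8.89% and 11.2% of all counts in vehicle 1, 2 and unnumbered and 11.1%, 12.4% and 11.4% in iD1 1, 2 and 3. The vehicle libraries thus enclosed the iD1 range, with means of 11.4% ± 2.67 and 11.6% ± 0.718 (SD, n = 3 each). On TMM-scaled library sizes the family sum was 106409 ± 24146 CPM in vehicle and 125301 ± 15795 CPM in iD1, a ratio of 1.18 with overlapping libraries. The 9 members made up 43.5% to 48.7% of this sum. The share of mitochondrially encoded genes was 12.2% ± 1.49 with vehicle and 9.44% ± 0.802 with iD1. Their part in the Mup shares of all counts was not tested. With library sizes and TMM factors taken without these genes, the log2 ratio of the family sums was 0.235, against 0.236 with them. TMM factors largely offset such a change of library size, so these ratios do not bear on the shares of all counts.

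**Figure D4:**
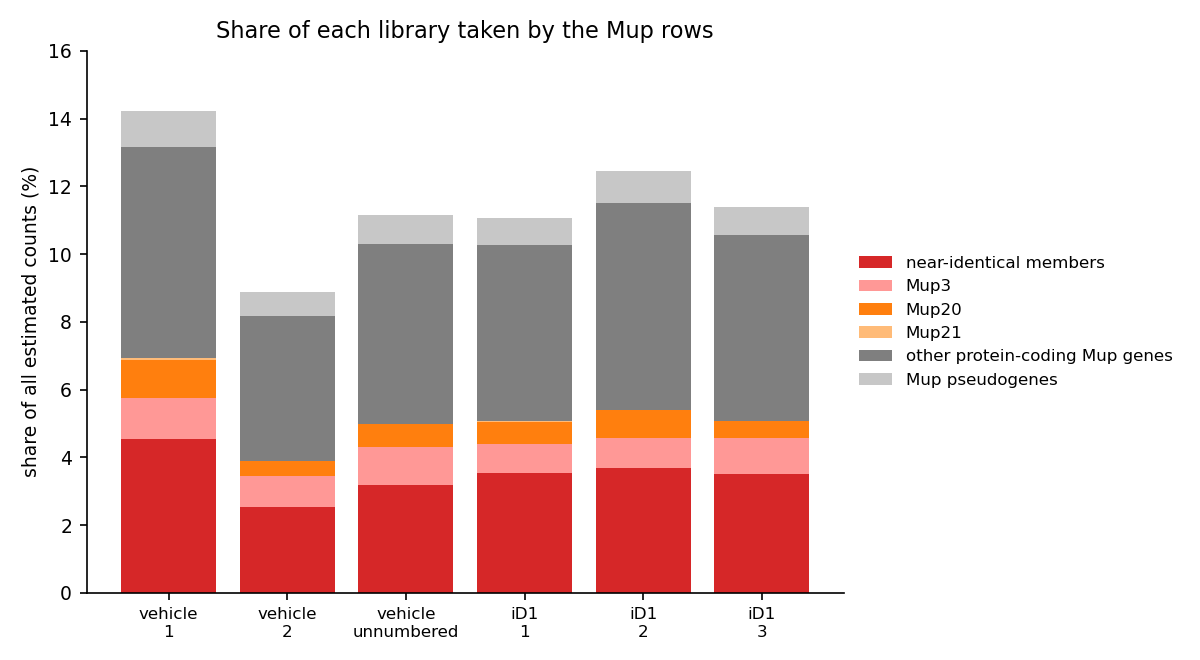
Percent of all estimated counts in each of the 6 libraries that fell on the Mup rows, stacked by the near-identical members, Mup3, Mup20, Mup21, the other protein-coding Mup genes and the Mup pseudogenes. The bars reach 8.89% to 14.2% in vehicle and 11.1% to 12.4% in iD1, and the near-identical members and the other protein-coding genes form most of each.

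Within the family, Mup7 held 20.7% of the summed CPM in vehicle and 20.6% in iD1, and Mup1 held 3.95% and 4.38%. For Mup3 the shares were 8.39%, 10.2% and 9.85% in vehicle 1, 2 and unnumbered against 7.71%, 7.16% and 9.14% in iD1 1, 2 and 3, which overlap. Mup20 held 6.43% and 5.66% on average, Mup11 2.84% and 3.26%, and Mup17 1.42% and 1.86%.

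By the coefficient of variation, the vehicle libraries differed from each other more than the iD1 libraries did in 7 of the 9 genes. In Mup3, 1 of these 7, the difference was small, at 15.3% against 14.4%. The median coefficient of variation of the members was 39.8% in vehicle and 14.4% in iD1. Among 6386 genes with at least 10 CPM in both groups, the medians were 9.63% and 10.7%, and 44.5% of those genes varied more in vehicle. The exceptions among the members were Mup2 and Mup10. Vehicle 1 was the highest vehicle library for 8 of the 9 genes, all but Mup3, and vehicle 2 the lowest for 8 of the 9, all but Mup2. In iD1 no library held such a place, and iD1 2 was the highest for 5 genes and iD1 3 the lowest for 5. The members share libraries and, in part, sequence, so these counts are not independent of each other, and the difference in spread between the groups was not tested.

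Growth hormone signalling, which drives the Mup genes in male liver, was followed in 12 genes, of which 11 could be tested. Of these, 1 rose and 1 fell, where 8.42% and 8.3% of all genes were called in these directions, and the median log2 fold change was -0.13. Igfals, whose product holds IGF1 in the circulation, fell from 78.2 ± 7.20 to 40.3 ± 8.49 CPM (SD, n = 3 each), a log2 fold change of -0.96 (SE 0.16, adjusted p = 0.00455). Igf1 itself, the hormone made under growth hormone control, stood at 543 ± 61.6 and 542 ± 39.6 CPM, and was chosen for mention after its values were seen. Socs3, a feedback inhibitor of cytokine receptors, rose from 3.77 ± 1.48 to 33.2 ± 26.7 CPM (log2 fold change 3.13, SE 0.70, adjusted p = 0.0438). The call for Igfals held with each library left out in turn, and that for Socs3 held only without iD1 2 (adjusted p up to 0.134).

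Among 12 regulators of Mup transcription, 1 rose and 2 fell, beside 8.42% and 8.3% of all genes tested, with a median of -0.21. Hnf4a, a nuclear receptor of hepatocyte identity, rose by 0.78 on the log2 scale (SE 0.22, adjusted p = 0.0366), from 424 ± 116 to 730 ± 94.8 CPM. Thra, a thyroid hormone receptor, fell by 0.59 (SE 0.17, adjusted p = 0.0406), and Nr3c1, the glucocorticoid receptor, fell by 0.51 (SE 0.13, adjusted p = 0.0286). These 3 calls were sensitive to leaving out a library, in fits that had fewer samples and so less power. The log2 fold changes then kept their sign, at 0.57 to 0.90 for Hnf4a, -0.71 to -0.48 for Thra and -0.60 to -0.42 for Nr3c1. The call for Hnf4a held only without iD1 1 (adjusted p up to 0.108) and that for Thra only without the unnumbered vehicle library (up to 0.129). The call for Nr3c1 was lost without vehicle 2, the unnumbered vehicle library, iD1 2 or iD1 3 (up to 0.0975), and that for Hnf4a also with scaling by library size alone.

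The Mup genes belong to the sex-biased programme of the liver. Of 19 other genes that are higher in males, 1 rose and 2 fell, beside 8.42% and 8.3% of all genes tested. Their median was 0.06. Nudt7, a peroxisomal coenzyme A hydrolase, fell from 579 ± 84.5 to 297 ± 13.6 CPM (log2 fold change -0.96, SE 0.15, adjusted p = 0.00372), whichever library was left out. Cyp2u1, a cytochrome P450, fell by 1.53 on the log2 scale (SE 0.31, adjusted p = 0.0171, and 0.0731 without iD1 3). Gstp2, a glutathione transferase, rose by 1.42 (SE 0.38, adjusted p = 0.0456), a call that was lost without the unnumbered vehicle library, iD1 1 or iD1 2 (up to 0.125), with library size alone and with upper-quartile scaling. Of 12 tested genes that are higher in females, edgeR called 0, beside 16.7% of all genes tested. At an unadjusted p under 0.05 there was 1, beside 31.3%. As values from that list, Fmo2 stood at 37.2 ± 24.2 and 51.7 ± 21.2 CPM and Prlr, the prolactin receptor, at 76.6 ± 23.4 and 65.6 ± 10.98 CPM.

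Among 9 tested genes of other lipocalins, the protein family to which the members belong, 1 rose, beside 8.42% of all genes tested. Lcn2, an iron-withholding lipocalin of the acute-phase response, rose from 3.30 ± 2.13 to 303 ± 324 CPM (log2 fold change 6.50, SE 1.27, adjusted p = 0.0334), with an SD in iD1 above its mean, and its call held only without iD1 2 (adjusted p up to 0.116). Among 16 other secreted liver proteins, 3 rose and none fell by the test, beside 8.42% and 8.3% of all genes tested. The fibrinogen gene Fgb rose by 1.87 on the log2 scale (SE 0.30, adjusted p = 0.00433), whichever library was left out. Haptoglobin, Hp, rose by 1.78 (SE 0.34, adjusted p = 0.00989, and 0.0504 without vehicle 1). Apoa1, the main protein of high-density lipoprotein, rose by 0.58 (SE 0.16, adjusted p = 0.0390), a call that was lost with any library left out (0.0559 to 0.142) and with library size alone or upper-quartile scaling. The median was 0.35 for the lipocalins and 0.20 for the secreted proteins, beside 0.13 for the 9 Mup genes.

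**Figure D5:**
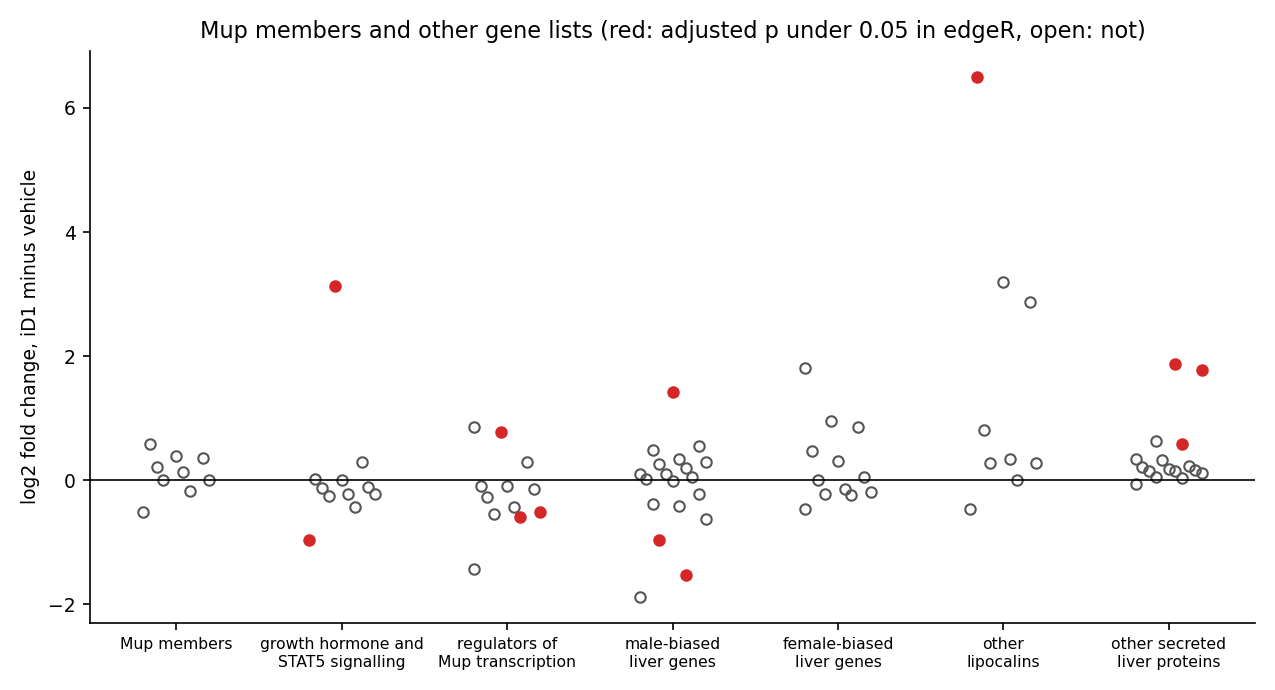
Log2 fold change, iD1 minus vehicle, of each tested gene in the 9 Mup members and in 6 gene lists, with red points for an adjusted p under 0.05 in edgeR and open points for the rest. The Mup members lie between -0.51 and 0.58 with no red point, while single genes of the other lists reach from -1.53 to 6.50 among those called.

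Liver markers were present in all libraries, and the mixture of cells was followed by marker lists beside the Mup values. In bulk RNA, fewer cells of a type and less RNA per cell cannot be told apart. Of 9 hepatocyte markers, none was at 0, and their summed level was 77262 to 102155 CPM in vehicle and 100458 to 112392 in iD1. By the test 4 of the 9 rose (Pck1, Cyp2e1, Hnf4a and Apoa1), where 8.42% of all genes tested did. Pck1, the rate-limiting enzyme of gluconeogenesis, rose by 2.08 on the log2 scale (adjusted p = 0.000739) and Cyp2e1, a cytochrome P450, by 0.90 (adjusted p = 0.0193, lost without any 1 of the vehicle libraries or iD1 3, up to 0.0781). The markers of Kupffer cells summed to 98.2 to 167 CPM in vehicle and 95.4 to 135 in iD1, with a median log2 fold change of -0.32. With edgeR 0 of 7 were called, beside 16.7% of all genes tested, and 2 had an unadjusted p under 0.05, near the 31.3% of all genes tested. Clec4f, the Kupffer cell lectin, stood at 53.7 ± 14.9 and 43.2 ± 8.05 CPM.

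Markers of sinusoidal endothelium summed to 136 to 183 CPM in vehicle and 132 to 159 in iD1, with a median log2 fold change of -0.22. EdgeR called 0 of 6, beside 16.7% of all genes tested. At an unadjusted p under 0.05 there were 4 of 6, a larger share than the 31.3% of all genes tested. Markers of stellate cells summed to 171 to 230 and 163 to 221 CPM, and 1 of 6 fell, Lrat, which makes stored retinyl esters (log2 fold change -1.77, adjusted p = 0.00289). Over all genes tested, 8.42% were called higher and 8.3% lower. Among 5 cholangiocyte markers, which summed to 22.9 to 36.5 and 28.0 to 45.5 CPM, Sox9 rose by 0.85 (adjusted p = 0.0386, with a library left out held only without iD1 3, up to 0.125, and lost at 0.0545 with upper-quartile scaling and 0.125 with library size alone) and Krt19 fell by 2.66 (adjusted p = 0.00312). Of 5 genes of the exocrine glands that also make Mup transcripts, 4 were in the table. Amylase Amy1 formed nearly all of their sum at 194 ± 30.4 and 223 ± 36.1 CPM, and Smr3a was at 0 in all libraries. The part of cell composition in the Mup values was not tested.

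The patterns most like the Mup family sum over the 6 libraries were sought among 6930 other genes with at least 10 CPM, by the mean absolute difference of centred log2 CPM. The closest were Sap30l, Rps9, Rps6, Gpx4-ps2 and Gpr180, with differences of 0.065 to 0.067, where the median over the genes compared was 0.26. Each of these was highest in iD1 2 and lowest in vehicle 2, as the family sum was. The 6 libraries share their scaling factors across all genes, so this is a description of likeness in these libraries only.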

How the data were processed

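Estimated counts for each gene, without scaling to depth, were deposited by the authors in 1 table for 3 vehicle and 3 iD1 liver libraries made with a stranded mRNA kit, per the labels' protocols. For the alignment and the quantification, tool, build and annotation were not given in the sources used here. Totals ran from 23515571 to 37613549, and 22.6% to 27.7% of each library's values were not whole. The deposited estimated counts were rounded.

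Identifiers were matched to GENCODE M21 on GRCm38 (93.4% with version), giving symbols for 34582 of 34866. Groups were compared with edgeR 4.0.16 (R 4.3.3) by its robust quasi-likelihood F test after filterByExpr (minimum count 10, minimum total 15), with TMM factors of 1.01 to 1.11 in vehicle and 0.878 to 1.01 in iD1, and Benjamini-Hochberg adjustment over 13718 genes at 0.05, two-sided. A standard error is the log2 fold change divided by the square root of F, and 95% intervals use the test's degrees of freedom. An exact permutation test of 3 against 3 cannot go under 0.1 and was not used. DESeq2 1.42.0, voom in limma 3.58.1, other scalings and filters, a replicate block and leaving out each library were alternatives. Tested on simulated data of 13718 genes, the fit called 12% of 50 genes changed 1.5-fold, 64% of those changed 2-fold and 11 of 13518 unchanged genes.

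Coding sequences and stretches of transcript were compared on GENCODE M21 transcripts, choosing for each gene the coding length nearest to 540 bases. The columns were assigned by name, and 1 vehicle column whose number fits no title was used as an unnumbered vehicle replicate. The members and gene lists were chosen with earlier results of these data known. By rule, every member is given per library, other Mup rows are counted and named where they reach 1 CPM, lists give up to 6 called genes by p-value or up to 2 as values, neighbours within 1 Mb are named if called, and the 5 most similar profiles are named. Igf1 was named outside this rule. The labels do not say that replicate numbers pair the samples, so they were not taken to do so. Same-numbered libraries correlated at 0.21 and -0.16 in their deviations from the group means. Other pairs of libraries ran from -0.32 to 0.29, so these correlations cannot settle the question of pairing.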

Additional observations from a re-analysis of the deposited data

How the results depend on the processing

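The count of called members stayed at 0 of 9 under other scaling factors, DESeq2, limma-voom, other filters, non-robust shrinkage and a replicate block over numbers 1 and 2. With each library left out in turn it ranged from 0 to 1, the 1 being Mup17 without vehicle replicate 1. Over 17 alternatives, Mup1, Mup7, Mup11 and Mup17 stayed above 0, while Mup2, Mup3, Mup10, Mup20 and Mup21 took both signs. The median of the members moved from 0.13 to -0.09 with library size alone. The log2 ratio of the family sums was 0.24, 0.03 with library size alone and 0.07 to 0.39 with a library left out. Each of these alternatives differed from 0.24 by less than the larger within-group SD of the log2 family sums. Over all genes, 2293 were called, 772 with the replicate block on 4 libraries (521 without the block on the same 4), and 1212 to 2574 with a library left out. Fewer samples entered these fits, also where the call of a named gene was lost with a library left out. The share of higher calls was 50.4%, against 38.4% under upper-quartile scaling and 24.1% under library size alone. Among the list genes named, calls for Thra and Sox9 were lost with limma-voom, and those for Lcn2, Socs3, Apoa1 and Gstp2 without the filter on low counts. Those for Apoa1, Cyp2e1, Nr3c1, Thra and Slc31a2 were lost with the block.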

Other observations

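The other 13 protein-coding Mup genes had positive log2 fold changes with TMM scaling, from 0.13 for Mup16 to 0.60 for Mup15, with a median of 0.29. Scaling by library size alone lowered the log2 ratio of the family sums from 0.24 to 0.03. Mup4, Mup5 and Mup6 shared at most 1.33% of their 100-base stretches with another Mup gene, and the others 77.5% to 100%. The 13 signs are therefore not independent of each other. EdgeR called 0 of the 13, and 2 had an unadjusted p under 0.05, a smaller share than the 31.3% of all genes tested. These were Mup19 (log2 fold change 0.47, SE 0.17, adjusted p = 0.0959) and Mup8 (0.45, SE 0.17, adjusted p = 0.106). In Mup19, Mup8 and Mup5 the iD1 libraries lay above all vehicle libraries, where 18.5% of all genes tested did. Mup19 was at 2410 to 3097 CPM in vehicle and 3499 to 4188 in iD1, Mup8 at 47.6 to 71.2 and 74.8 to 99.1, and Mup5 at 5.51 to 7.98 and 8.62 to 9.67. Mup22 was the most abundant, at 22794 ± 2846 CPM in vehicle and 27470 ± 3866 in iD1 (SD, n = 3 each), and each stretch of 100 bases in its transcript is also found in another Mup gene. Mup9 followed at 11239 ± 2977 and 13701 ± 2297 CPM, then Mup14 at 8169 ± 2398 and 9478 ± 1357. Mup12, Mup15, Mup16 and Mup18 had means of 121 to 4075 CPM, and Mup4, Mup6 and Mup13 means under 10 CPM.

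Of the 26 Mup pseudogenes, 16 had enough counts to be tested, with 6 log2 fold changes above 0 and 10 below. EdgeR called 0 of the 16, beside 16.7% of all genes tested, with 0 at an unadjusted p under 0.05, beside 31.3%. Mup-ps17, annotated with 218 exon bases, carried 6878 ± 1065 CPM in vehicle and 8128 ± 1103 in iD1, more than Mup1 in both groups, and 33.6% of its 100-base stretches were shared with another Mup gene. Mup-ps19 carried 1235 ± 396 and 1077 ± 307 CPM. The other pseudogene rows whose mean reached 1 CPM in either group were Mup-ps1, Mup-ps6, Mup-ps7, Mup-ps8, Mup-ps12, Mup-ps13, Mup-ps14, Mup-ps15, Mup-ps16, Mup-ps18, Mup-ps20 and Mup-ps21, and these had means of at most 14.6 CPM.

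Around the Mup stretch, 40 genes of other families lay within it or within 1 Mb of its ends. Of the 22 tested, 0 rose and 2 fell, beside 8.42% and 8.3% of all genes tested. Their median log2 fold change was -0.06. Hdhd3, a gene of the haloacid dehalogenase family, fell from 19.9 ± 1.15 to 5.15 ± 0.765 CPM (log2 fold change -1.95, SE 0.14, adjusted p = 0.000139), whichever library was left out. Slc31a2, a copper transporter gene, fell from 5.90 ± 0.377 to 3.45 ± 0.326 CPM (-0.77, SE 0.16, adjusted p = 0.0117, and 0.0521 without the unnumbered vehicle library). Both lie to the right of Mup21, the last Mup gene.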
